A study of Mus musculus with 11 samples.

Results

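The chemokine ligands Ccl3, Ccl4, Ccl5, Xcl1, Cxcl9 and Cxcl10, which T-cells make or answer to, were followed over 11 mouse expression arrays. They were taken as every row of the array table annotated with that single gene symbol, which gave 1 row for each of the 6 genes among 19937 genes with a row of their own. The arrays came from Lckpr-TCL1A+/- mice, hemizygous for the human oncogene TCL1A under the T-cell-restricted proximal Lck promoter, which develop a mature T-cell leukemia, and from wild-type mice. Exponential leukemias (n = 5) were sampled when the blood lymphocyte count doubled in 12 days on average (SEM 0.8), at a tumor cell share above 80% in the blood and above 90% in the spleen, in mice 15 months old on average. Chronic leukemias (n = 3) were sampled at a tumor cell share of 30 to 70% in both, in mice 12 months old on average. All 8 leukemia samples were splenic CD8+ T-cells enriched on magnetic columns. The wild-type samples (n = 3) were CD3+ pan-T-cells from spleens of age-matched C57BL/6 mice, each a pool of 3 mice, so that genotype and the way the cells were selected cannot be told apart in any comparison with wild type. The same 3 wild-type arrays serve both of those comparisons. The labels do not state that each leukemia array is a separate mouse, and p-values therefore measure the spread between these arrays, which may in part be technical.

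Chemokines are small secreted proteins that attract leukocytes through G protein-coupled receptors. Activated CD8+ T-cells and NK-cells release Ccl3, Ccl4, Ccl5 and Xcl1. Xcl1 binds Xcr1 on cross-presenting dendritic cells. Cxcl9 and Cxcl10 are interferon-induced ligands of Cxcr3, best known as products of macrophages, dendritic cells and stroma, that draw in effector T-cells.

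Expression is given as the deposited log2 value, on which a difference of 1 is a doubling. The arrays carry no detection call here, so that it is not known which values lie at background. The median of all rows was 2.30 and the upper quartile 3.50. In sorted bulk RNA, fewer cells of a type and less RNA per cell cannot be told apart. 1 library went against its label: exponential replicate 4 had Cd8a at 2.96, where the remaining 4 arrays of its group had 7.94 to 8.20, and Cd4 at 5.18, where they had 2.15 to 2.44. The same array had the highest values of the neutrophil genes S100a8 (7.89) and S100a9 (8.83). Both were also raised in the other exponential arrays, at 3.51 to 4.81 and 4.97 to 6.58. Wild-type arrays had 1.76 to 2.25 and 2.57 to 3.13. Values that this array moved by more than 1.5 times, and calls that it changed, are given with and without it. Cd3d and the other measured T-cell markers averaged 7.35 to 7.70 in exponential, 6.84 to 7.69 in chronic and 7.83 to 8.19 in wild-type arrays.

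The upstream sequences are shown because Cxcl10 and Cxcl9, which bind the same receptor and answer to interferon, did not run alike against wild type, and because Ccl3 and Xcl1 are induced with T-cell activation. RefSeq (GRCm38.p6) gave the 250 bases before the start of 4 of the 6 genes, all on the minus strand, written 5′ to 3′ in the direction of transcription, with matches of the searched motifs in capitals.
Cxcl10, chr5:92348890-92349139: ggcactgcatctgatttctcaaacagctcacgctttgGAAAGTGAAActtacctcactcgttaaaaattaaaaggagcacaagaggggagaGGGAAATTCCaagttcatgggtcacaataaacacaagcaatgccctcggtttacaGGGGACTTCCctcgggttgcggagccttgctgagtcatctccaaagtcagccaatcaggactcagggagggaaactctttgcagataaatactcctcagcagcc
Cxcl9, chr5:92328080-92328329: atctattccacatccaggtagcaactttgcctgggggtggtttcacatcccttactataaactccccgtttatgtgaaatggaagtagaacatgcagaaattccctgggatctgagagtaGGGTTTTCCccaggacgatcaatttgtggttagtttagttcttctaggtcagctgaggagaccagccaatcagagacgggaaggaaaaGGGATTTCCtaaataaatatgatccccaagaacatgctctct
Xcl1, chr1:164935523-164935772: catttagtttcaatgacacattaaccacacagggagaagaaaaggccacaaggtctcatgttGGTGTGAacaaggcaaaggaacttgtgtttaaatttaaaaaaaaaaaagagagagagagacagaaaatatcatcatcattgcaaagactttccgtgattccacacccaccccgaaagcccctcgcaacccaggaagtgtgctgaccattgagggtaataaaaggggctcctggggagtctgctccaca
Ccl3, chr11:83649379-83649628: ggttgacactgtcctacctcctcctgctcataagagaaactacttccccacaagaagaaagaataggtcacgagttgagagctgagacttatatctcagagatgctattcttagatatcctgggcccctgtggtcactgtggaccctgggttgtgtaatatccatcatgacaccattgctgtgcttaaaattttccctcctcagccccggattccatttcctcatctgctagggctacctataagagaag
Both strands were searched for the interferon response element (GAAA and GAAA with any 2 bases between them), for NF-kB (GGG and TTCC with any 2 or 3 bases between them), and for the T-box core GGTGTGA. Cxcl10 held 1 interferon response element, GAAAGTGAAA, ending 204 bases before the start, and 2 NF-kB matches, GGGAAATTCC and GGGGACTTCC. The last of these also contains the shorter form in an overlapping match. Cxcl9 held 2 NF-kB matches, GGGTTTTCC and GGGATTTCC, and no match to the interferon letters in this window. Xcl1 held 1 T-box match, and Ccl3 none of the 3. Over 32851 promoters of the same length, 2.98% held the interferon letters, 8.26% an NF-kB form and 3.33% the T-box letters. A match describes letters and not a bound site. Other motifs were not searched, and a link between these letters and the levels of the ligands was not tested. Ccl4 and Ccl5 were named only. In the RefSeq gene order Ccl3 and Ccl4 lie next to each other on chromosome 11, with Ccl9 and Ccl6 between Ccl3 and Ccl5, while Cxcl9 and Cxcl10 lie on chromosome 5 with only Art3 between them.

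Cxcl10 was lower in both kinds of leukemia than in wild-type T-cells. It stood at 3.59, 2.36, 3.23, 2.33 and 3.30 in the exponential arrays, at 3.40, 2.26 and 2.71 in the chronic arrays, and at 5.60, 5.21 and 4.95 in the wild-type arrays. All 8 leukemia arrays lay below all wild-type arrays, with 1.35 between the highest leukemia and the lowest wild-type value. In chronic leukemias Cxcl10 fell by 2.47 on the log2 scale (5.53-fold, SE 0.30, 95% interval -3.15 to -1.78, limma adjusted p = 0.0264), with means of 2.79 ± 0.58 in chronic and 5.25 ± 0.33 in wild-type arrays (SD, n = 3 each). In exponential leukemias it fell by 2.29 (4.89-fold, SE 0.31, interval -2.98 to -1.60, adjusted p = 0.0183), with a mean of 2.96 ± 0.58 (n = 5). Without exponential replicate 4 the difference was -2.13 (adjusted p = 0.00738), in a fit that called 1.11% of all genes and again 1 of the 6 ligands. Both calls rest on each of the 3 wild-type arrays: leaving any of them out kept the size, between -2.62 and -2.29 in chronic and between -2.44 and -2.12 in exponential leukemias, while the adjusted p rose to 0.0636 to 0.109 and to 0.0586 to 0.0768.

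**Figure D1:**
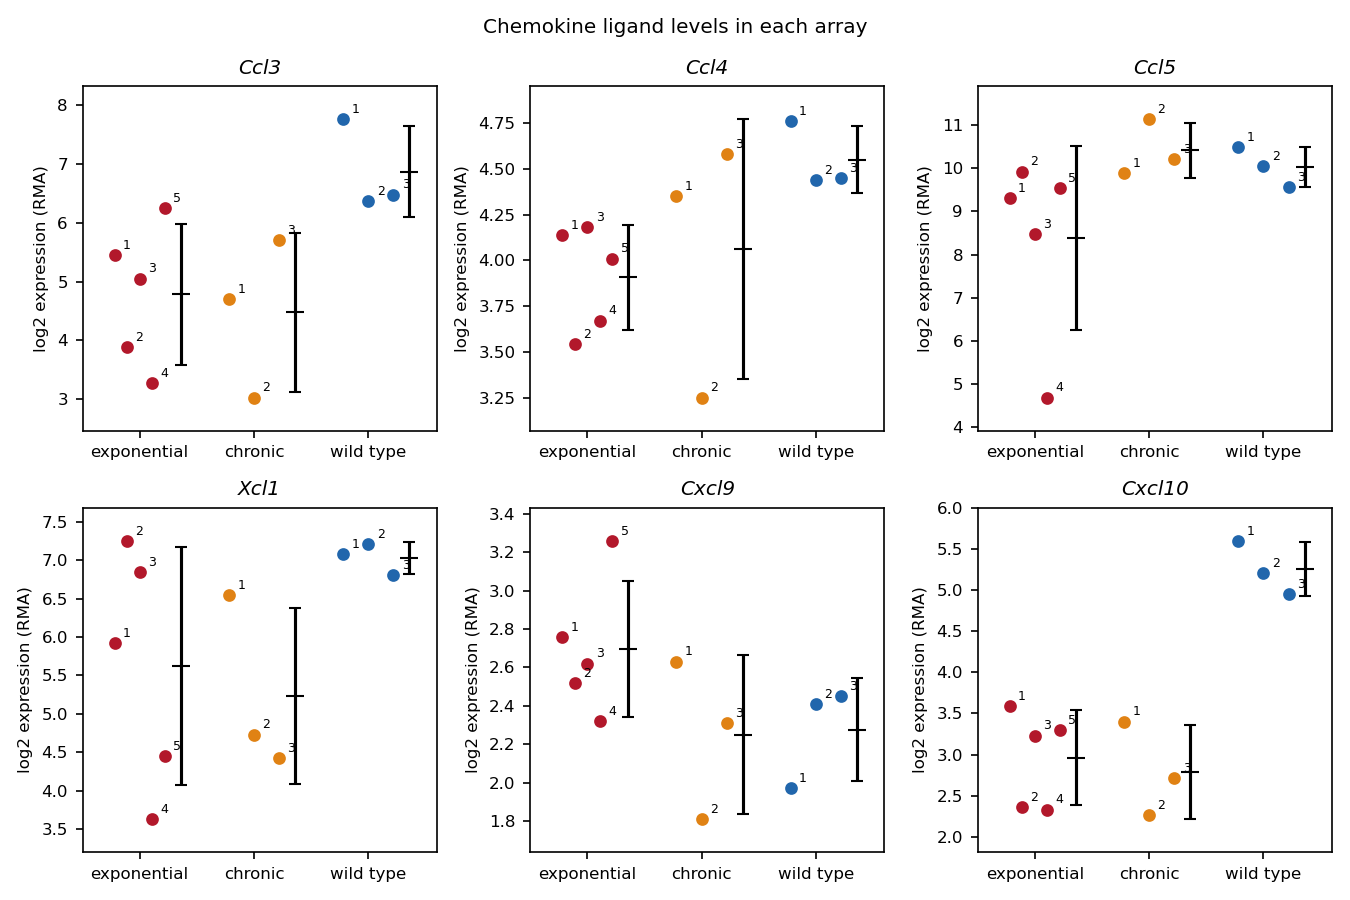
log2 expression of each ligand in every array, by group (exponential, chronic, wild type), with replicate numbers beside the points and the mean ± SD as bars to the right of each group. Cxcl10 and Ccl3 sit below wild type in all 8 leukemia arrays, and exponential replicate 4 holds the lowest Ccl5 (4.69) and Xcl1 (3.63).

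Cxcl10 was the only ligand of the 6 that passed the test in chronic against wild type, where 0.456% of all genes were called (91 of 19937), and likewise in exponential against wild type, where 0.416% were called (83 genes). Of the 6, 3 lay without overlap below wild type in the chronic arrays (Ccl3, Cxcl10 and Xcl1), against 7.52% of all genes, and 3 in the exponential arrays (Ccl3, Ccl4 and Cxcl10), against 3.5% of all genes. Taking all 8 leukemias together, Ccl3 and Cxcl10 lay below every wild-type array, against 1.65% of all genes. The difference was below 0 for 5 of 6 ligands in each comparison, against 50.3% of all genes in chronic and 48.3% in exponential leukemias. The median difference of the 6 was -1.14 in chronic and -1.53 in exponential leukemias, where the medians of all genes were -0.0 and 0.01, and the exponential median was -0.82 without replicate 4. Between exponential and chronic leukemias no gene was called by limma (0.0%), while 1246 genes (6.25%) had an unadjusted p under 0.05, with 0 of the 6 ligands among them. Leaving out exponential replicate 4 moved this difference to 0.68 for Ccl3, -0.09 for Ccl4, 0.33 for Cxcl10 and 0.88 for Xcl1, again with no ligand called.

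Cxcl9, the other Cxcr3 ligand, did not follow Cxcl10. It stood at 2.76, 2.52, 2.62, 2.32 and 3.26 in the exponential arrays, at 2.63, 1.81 and 2.31 in the chronic arrays, and at 1.97, 2.41 and 2.45 in the wild-type arrays, and the groups overlapped. All these Cxcl9 values lay below the upper quartile of all rows (3.50), and the wild-type values lay near the median (2.30). If those are at background, a fall of Cxcl9 from wild type could not be seen. The difference was 0.42 in exponential against wild type (interval -0.04 to 0.88, adjusted p = 0.566), -0.03 in chronic against wild type (-0.56 to 0.51, adjusted p = 0.986) and 0.45 in exponential against chronic (-0.08 to 0.97, adjusted p = 0.821). Over the 8 leukemia arrays Cxcl9 and Cxcl10 went up and down together (r = 0.73), while over all 11 arrays r was -0.07 (rho 0.19), the wild-type arrays lying apart for Cxcl10 and among the leukemias for Cxcl9. Cxcl11, a further Cxcr3 ligand, ranged only between 1.74 and 2.16 over all arrays.

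Ccl3, a chemoattractant of monocytes and T-cells released on T-cell receptor triggering, lay below wild type in every leukemia and spread widely among them. It stood at 5.45, 3.89, 5.05, 3.28 and 6.25 in the exponential arrays, at 4.70, 3.03 and 5.71 in the chronic arrays, and at 7.76, 6.37 and 6.48 in the wild-type arrays. The groups did not overlap, although the gap between the highest leukemia and the lowest wild-type array was only 0.13. The difference was -2.39 in chronic (SE 0.66, interval -3.92 to -0.86, adjusted p = 0.215) and -2.09 in exponential leukemias (SE 0.63, -3.50 to -0.68, adjusted p = 0.257) and did not pass the test over all genes in either. Exponential and chronic leukemias differed by 0.30 (-1.37 to 1.97, adjusted p = 0.966), and the sign of that value turned when exponential replicate 5 or chronic replicate 2 was left out.

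Ccl4, the chromosomal neighbor of Ccl3 and likewise released by activated T-cells, spread over less than Ccl3 in each group. It stood at 4.14, 3.54, 4.18, 3.67 and 4.01 in the exponential arrays, at 4.35, 3.25 and 4.58 in the chronic arrays, and at 4.76, 4.44 and 4.45 in the wild-type arrays. All exponential arrays lay below all wild-type arrays, and chronic replicate 3 lay within the wild-type range. The difference was -0.64 in exponential (SE 0.17, interval -1.02 to -0.26, adjusted p = 0.187) and -0.49 in chronic leukemias (SE 0.32, -1.24 to 0.26, adjusted p = 0.683), where it was -0.08 without chronic replicate 2 and -0.75 without chronic replicate 3. Exponential against chronic differed by -0.15 (-0.80 to 0.50, adjusted p = 0.958). Ccl3 and Ccl4 followed each other over the 11 arrays (r = 0.87, rho 0.82) and over the 8 leukemias (r = 0.78).

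Ccl5, stored and released by memory and effector CD8+ T-cells, overlapped between all groups. It stood at 9.30, 9.92, 8.48, 4.69 and 9.53 in the exponential arrays, at 9.89, 11.13 and 10.21 in the chronic arrays, and at 10.48, 10.04 and 9.56 in the wild-type arrays. Exponential replicate 4, the array with Cd8a at 2.96, stood apart, and the other exponential arrays but replicate 2 also lay below all chronic arrays. The exponential mean was 8.38 ± 2.13 (n = 5), or 9.31 ± 0.61 without that array (n = 4), against 10.41 ± 0.64 in chronic and 10.03 ± 0.46 in wild-type arrays. Exponential against wild type differed by -1.64 (interval -3.95 to 0.67, adjusted p = 0.691), or -0.72 without replicate 4 (-1.44 to 0.0, adjusted p = 0.443). Exponential against chronic differed by -2.02 (-4.39 to 0.34, adjusted p = 0.821), or -1.10 without it (-1.93 to -0.27, adjusted p = 0.642). Chronic against wild type differed by 0.38 (-0.42 to 1.19, adjusted p = 0.788), a value that was 0.02 without chronic replicate 2, 0.64 without chronic replicate 1, and 0.61 and 0.15 without wild-type replicate 1 or 3.

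Xcl1, which draws in cross-presenting dendritic cells, was near its wild-type level in some leukemias and far below it in others. It stood at 5.92, 7.25, 6.84, 3.63 and 4.45 in the exponential arrays, at 6.54, 4.73 and 4.42 in the chronic arrays, and at 7.08, 7.21 and 6.80 in the wild-type arrays. All 3 chronic arrays lay below wild type, as did 3 of 5 exponential arrays. The difference was -1.80 in chronic (SE 0.50, interval -2.95 to -0.65, adjusted p = 0.217) and reached the call when chronic replicate 1 was left out (-2.46, adjusted p = 0.01). In exponential leukemias it was -1.41 (-3.08 to 0.25, adjusted p = 0.609), or -0.92 without replicate 4 (-2.14 to 0.30, adjusted p = 0.623). Exponential against chronic differed by 0.39 (-1.51 to 2.29, adjusted p = 0.961).

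**Figure D2:**
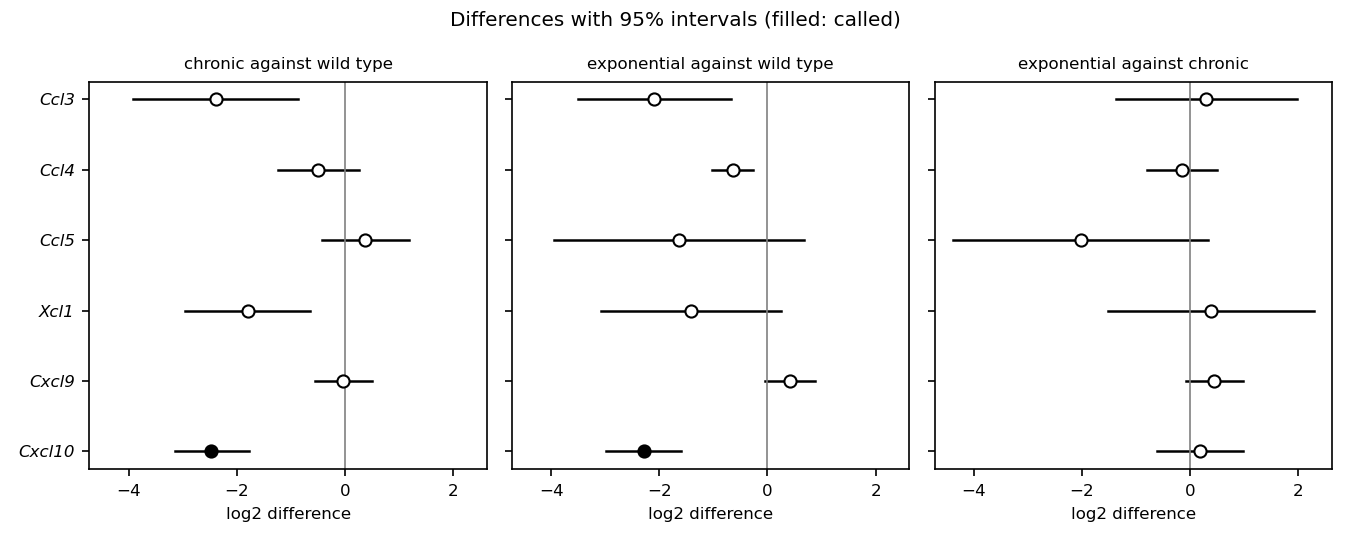
log2 difference of each ligand (x axis) in the 3 comparisons, with its 95% interval; filled points passed the limma test. Cxcl10 was called in both comparisons with wild type (-2.47 and -2.29), and no ligand was called in exponential against chronic.

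Array by array, the leukemias formed no common order over the 6 ligands. Chronic replicate 2 was the lowest of the 8 leukemia arrays for 4 of 6 ligands (Ccl3, Ccl4, Cxcl9 and Cxcl10) and the highest for Ccl5. Exponential replicate 4 was the lowest for Ccl5 and Xcl1, and exponential replicate 5 was the highest for Ccl3 and Cxcl9 while its Xcl1 stood at 4.45. Ccl3 also followed Cxcl10 (r = 0.86 over 11 arrays, 0.76 over the 8 leukemias), whereas Ccl3 and Xcl1 gave r = 0.05 over the leukemias and Ccl3 and Ccl5 gave 0.25. These coefficients are over arrays that share their normalization and, in part, their group differences, and are descriptions only.

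**Figure D3:**
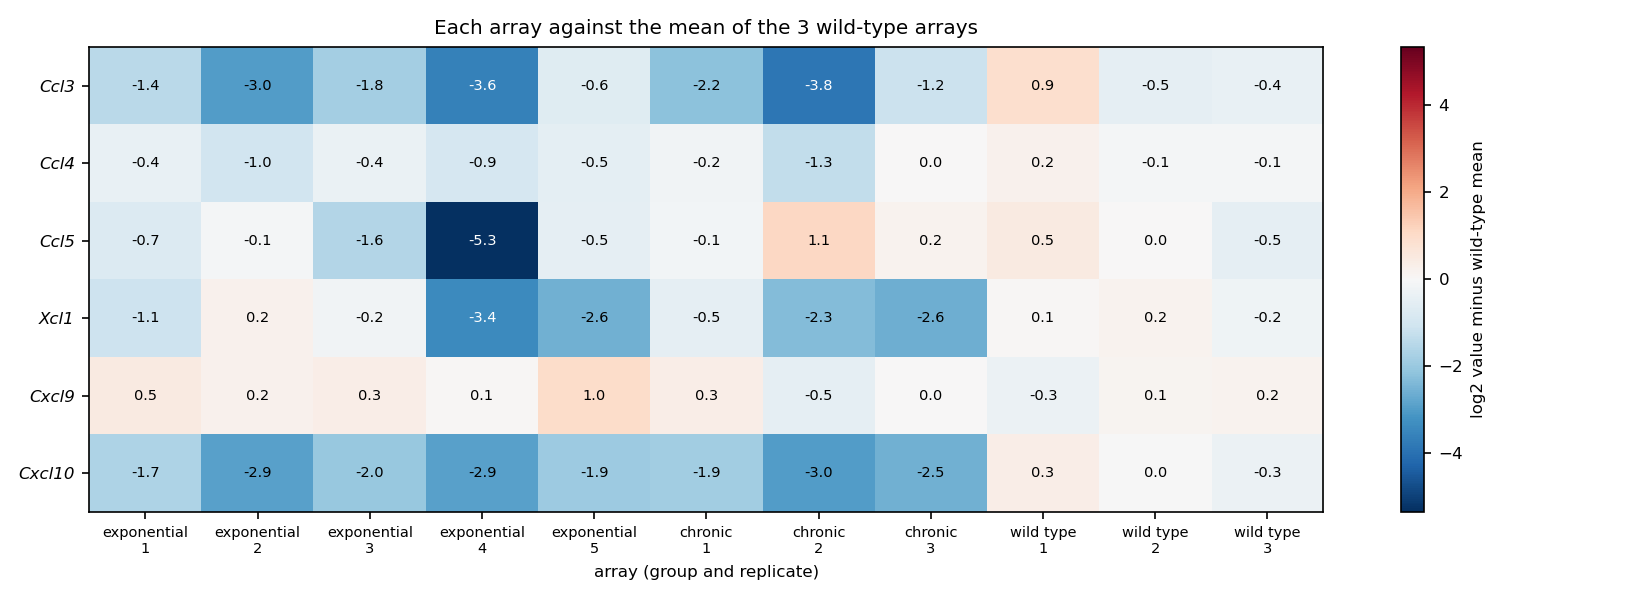
log2 value of each ligand (down the page) in each array (across: exponential, chronic, wild type) minus the mean of the 3 wild-type arrays, as color and number. Cxcl10 and Ccl3 are below 0 in all 8 leukemia arrays, and the lowest cell is Ccl5 in exponential replicate 4.

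The genes whose level ran most alike over the 11 arrays differed from ligand to ligand, among 3995 genes that ranged over at least 1 on the log2 scale. For Cxcl10 these were Ctla4 (r = 0.97, rho 0.95, 0.92 over the 8 leukemias, and 0.96 without the 2 arrays farthest from the median), a checkpoint receptor that dampens T-cell activation, Slamf1 (0.97), Ttn, Penk and Rgs16 (0.95 each). Over the 8 leukemias alone r was lower, at 0.85 for Slamf1, 0.70 for Ttn, 0.65 for Penk and 0.80 for Rgs16. Ctla4 stood at 7.57, 4.07, 6.28, 3.85 and 6.87 in exponential, at 6.29, 4.77 and 6.13 in chronic and at 10.17, 10.37 and 9.62 in wild-type arrays. For Ccl3 they were the redox enzyme Glrx (r = 0.96, rho 0.98, and 0.95 over the leukemias), the stress-response transcription factor Bhlhe40 (0.92), Ltb, Traf1 and the immediate early gene Fosb (0.92). For Ccl4 they were the chaperone Hspa5 (r = 0.94, rho 0.90), the AP-1 factor Batf (0.89), Sdhaf1, Dnah3 and Ltb, so that Ltb stood on the lists of both neighbors. For Cxcl9 they were Gml (r = 0.90, rho 0.79), the lysosomal genes Psap (0.89) and Ctsh (0.87), Bcl10 and Hspb11. For Xcl1 none exceeded 0.80 (Bckdhb, rho 0.76, with Mir680-3, Clec2d, Sesn1 and Cd27 following).

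For Ccl5 the likeness to several genes rested on exponential replicate 4. The closest genes were Serpinb6b (r = 0.95, rho 0.67, but 0.66 without that array), Hipk1 (0.95 and 0.83), Fasl (0.93 and 0.63), the cytotoxic granule gene Nkg7 (0.91 and 0.21, rho 0.37) and Ndufb8 (0.91 and 0.81). In replicate 4 Nkg7 stood at 2.75, where the group otherwise ranged over 8.42 to 9.24.

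**Figure D4:**
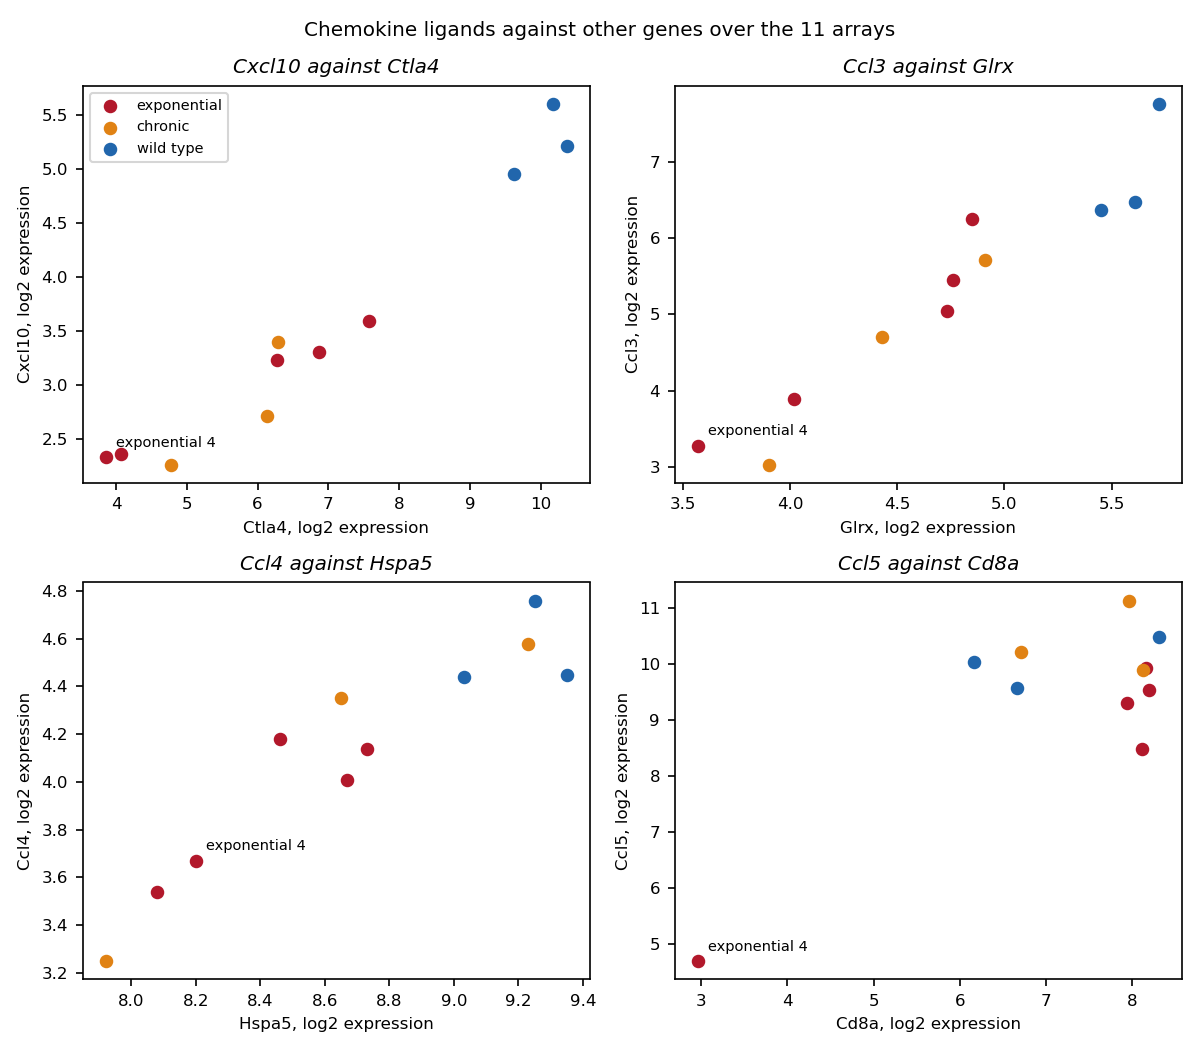
log2 expression of Cxcl10, Ccl3, Ccl4 and Ccl5 (y axes) against Ctla4, Glrx, Hspa5 and Cd8a (x axes), 1 point per array, colored by group. In the first 3 panels the arrays run along a line, while Ccl5 against Cd8a shows exponential replicate 4 (4.69 and 2.96) alone at the lower left.

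Of the other chemokine ligands, 30 had a row and none was called in any of the 3 comparisons. Their median differences were -0.07 in exponential against wild type, -0.06 in chronic against wild type and 0.01 in exponential against chronic. In 28 of the 30 the highest of the 11 arrays was at or below the upper quartile of all rows, and 5 of 30 ranged over at least 1 on the log2 scale, as all 6 described ligands did. If those 28 are at background, a fall could not be seen in them. Above the quartile were Ppbp and Ccl19. Ccl19 ranged over 5.01 to 7.78 and differed from wild type by -0.46 in exponential and -0.81 in chronic leukemias. The neutrophil attractant Cxcl2 differed by -0.68 in exponential (adjusted p = 0.48) and -0.81 in chronic leukemias (adjusted p = 0.351). Ccl6, which lies between Ccl5 and Ccl3, averaged 3.01 ± 0.21 in exponential, 2.39 ± 0.11 in chronic and 2.50 ± 0.31 in wild-type arrays, a difference of 0.50 from wild type (adjusted p = 0.309). The platelet gene Ppbp stood at 5.94 and 6.29 in chronic replicates 2 and 3, against 1.66 in chronic replicate 1.

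**Figure D5:**
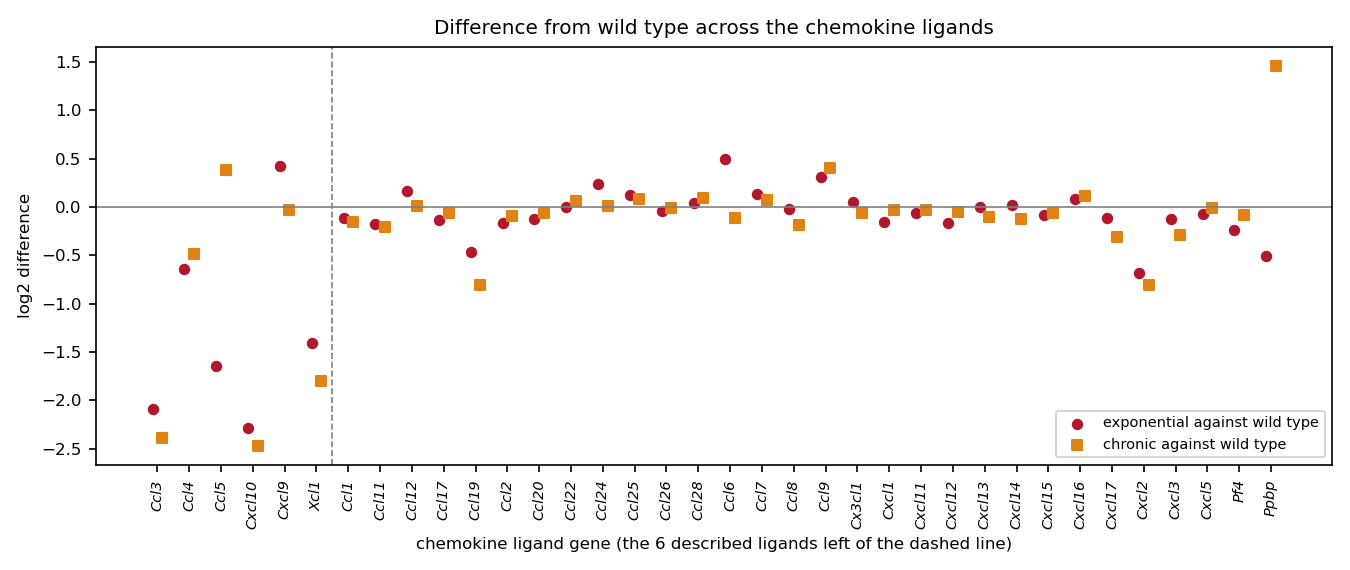
log2 difference from wild type (y axis) of 36 chemokine ligand genes in exponential and chronic leukemias. The 6 described ligands, left of the dashed line, reach -2.47, while most others lie near 0 and Ppbp in chronic leukemias stands highest at 1.46. In 28 of the 30 others the highest array is at or below the upper quartile of all rows.

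Of the receptors, Cxcr3, which binds Cxcl9 and Cxcl10, averaged 4.52 ± 0.92 in exponential, 4.29 ± 0.58 in chronic and 5.09 ± 0.44 in wild-type arrays, with 2.87 in exponential replicate 4. Without that array the exponential mean was 4.93 ± 0.08 (n = 4). The difference from wild type was -0.57 in exponential leukemias (adjusted p = 0.786), or -0.16 without replicate 4 (interval -0.57 to 0.25, adjusted p = 0.852), and -0.81 in chronic leukemias (adjusted p = 0.405). Ccr1, Ccr3 and Xcr1 had means between 1.67 and 2.38 and none was called. Among 18 further chemokine receptors, Ccr2, a receptor of monocytes and memory T-cells, rose by 2.04 in chronic leukemias (7.75 ± 0.56 against 5.71 ± 0.32, adjusted p = 0.0396), and Cxcr6, a receptor of tissue-resident T-cells, fell by 3.02 in exponential leukemias (3.51 ± 1.00 against 6.53 ± 0.06, adjusted p = 0.0394). The Ccr2 call was lost in 9 of 19 alternative settings and the Cxcr6 call in 10 of 21, including any 1 wild-type array left out for both. Chronic replicates 1 and 2 also carried the Ccr2 call (adjusted p = 0.0993 and 0.0976 without them), and exponential replicates 2, 3 and 5 the Cxcr6 call (0.105, 0.114 and 0.0903). Without exponential replicate 4 Cxcr6 stayed called, and Ccr4, at 5.68 in that array, was newly called lower (2.30 ± 0.14 against 3.15 ± 0.36 in wild type).

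Interferon-gamma and the type I interferons are the classical inducers of Cxcl10. None of 18 measured genes of the interferon-gamma axis was called in either comparison with wild type over all arrays, and their median differences were -0.25 in exponential (0.05 without replicate 4) and -0.08 in chronic leukemias. The signal transducer Jak2 came close to the call, at -0.78 in exponential (adjusted p = 0.0782, or -0.83 and called without replicate 4, adjusted p = 0.0416) and -1.02 in chronic leukemias (adjusted p = 0.0719), where Ifngr2 stood at -0.91 (adjusted p = 0.0719). Ifng itself stood at 2.38 in exponential replicate 4, while its group otherwise ranged over 7.04 to 8.98. None of 17 type I interferon response genes was called, and their medians were above 0, at 0.40 in exponential and 0.41 in chronic leukemias, with Ifit3 at 2.18 in chronic leukemias (adjusted p = 0.132).

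Of 13 cytotoxic effector genes, with median differences of -0.17 in exponential (0.29 without replicate 4) and 0.42 in chronic leukemias, the protease Gzmb rose by 2.21 (adjusted p = 0.00801) and the NK receptor chain Klrd1 by 1.88 (adjusted p = 0.0371) in chronic leukemias, and none was called in exponential leukemias with or without replicate 4. That array had Gzmb at 2.48 and Klrd1 at 3.39. Gzmb differed by 1.29 in exponential against wild type (adjusted p = 0.81), or 2.24 without it (interval 0.98 to 3.50, adjusted p = 0.109), and Klrd1 by -0.17 (adjusted p = 0.978), or 0.57 without it (-0.29 to 1.42, adjusted p = 0.68). The Klrd1 call in chronic leukemias was lost in 8 of 19 settings, among them each chronic array left out, and wild-type replicate 1 or 3 left out. Of 13 transcription factors known to drive the 6 ligands, Egr2 fell by 2.09 in chronic leukemias (3.17 ± 0.24 against 5.26 ± 0.42, adjusted p = 0.0166), a call lost without wild-type replicate 1 or 3 (0.0777 and 0.0622). In exponential leukemias Egr2 differed by -1.16 (adjusted p = 0.35) and no factor was called. The median of the 13 was 0.05 in exponential leukemias, with 7 above 0 (-0.02 and 6 without replicate 4), and -0.11 in chronic leukemias, with 5 above 0.

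Markers of other cells moved with some of these results, and their part was not tested. CD4 markers averaged 2.34 to 4.06 in exponential (to 2.73 without replicate 4), 2.19 to 2.85 in chronic and 4.38 to 4.54 in wild-type arrays, and Cd4, Cd40lg and Ikzf2 fell in chronic leukemias by 2.29, 2.52 and 3.89 (adjusted p = 0.0122, 0.0176 and 0.016). In exponential leukemias against wild type none of the 5 CD4 markers was called with all arrays, and 4 fell without replicate 4, Cd4 by 2.18 (adjusted p = 0.000167). Exponential replicate 4 had Cxcl10 at 2.33 and the CD4 markers at 4.06 on average, but these did not move together. In that array only Cd4 (5.18) lay above the wild-type arrays. Ikzf2 (6.88), Cd40lg (3.54) and Foxp3 (2.24) lay below them, and Zbtb7b (2.47) lay within their range. The 8 monocyte and macrophage markers averaged 2.70 to 3.15 in exponential, 2.15 to 2.31 in chronic and 2.28 to 2.43 in wild-type arrays, and Lyz2 rose by 2.91 in exponential leukemias against wild type (adjusted p = 0.0114). Without replicate 4 Lyz2 kept its call and Vcam1 was newly called higher. Dendritic cell markers averaged 2.94 to 3.51, 2.47 to 3.03 and 2.68 to 3.37 in exponential, chronic and wild-type arrays. The neutrophil markers averaged 2.78 to 4.58 in exponential (to 3.45 without replicate 4), 2.17 to 2.43 in chronic and 2.17 to 2.46 in wild-type arrays. In exponential leukemias against wild type none of them was called with all arrays, and S100a8 and S100a9 were called higher without replicate 4. The 5 erythroid markers averaged 2.27 to 3.13 in exponential, 2.19 to 4.04 in chronic and 3.8 to 4.12 in wild-type arrays. Among them Car1, an erythroid carbonic anhydrase, fell by 6.11 in exponential leukemias against wild type (adjusted p = 0.0114). It stood at 1.82 to 5.29 in exponential, at 2.27, 9.27 and 7.63 in chronic and at 8.53, 8.82 and 9.79 in wild-type arrays. The other erythroid markers, Alas2, Klf1, Epor and Slc4a1, stood between 1.95 and 3.69 in all arrays. None of them was called against wild type, and the median difference of the 5 was -0.25 in exponential leukemias.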

How the data were processed

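RNA of the 11 samples was hybridized to mouse gene expression arrays. The authors deposited log2 expression values, background-corrected and quantile-normalized with RMA (software version: not given in the sources used here). All arrays share 1 distribution of values, so that a shift common to all genes cannot be seen. Precision is limited by the number of arrays. Of 34760 rows, 21640 had 1 gene symbol, 1321 several and 11799 none in the platform annotation. Rows with 1 symbol were kept, with the highest-mean row for each of 954 genes with several.

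Groups were compared with limma 3.58.1 (R 4.3.3) on the arrays of each comparison, with Benjamini-Hochberg adjustment over 19937 genes. Calls needed an adjusted p under 0.05 and a fold of at least 1.5. The scripts were tested on simulated data. Named were the 6 ligands, their receptors, every called gene of the other lists and otherwise the 2 with the smallest p in each comparison, of which the text gives some, and the 5 genes most like each ligand. Members and lists were chosen with earlier results of these data known. Alternatives covered the samples in the fit, replicate block, dim rows, normalization, variance model, array weights, the methods' t-test, rows tested, gene rows and the fold. Same-numbered arrays of 2 groups did not correlate in every pair above 0.1, so that the numbers were not taken to pair the samples.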

Additional observations from a re-analysis of the deposited data

Results flagged for a closer look

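Among the exponential leukemias, Ccl5 in replicate 4 stood at 4.69, far from the next lowest value of 8.48, with a gap of 0.724 of the whole range of the 5 arrays. The 6 ligands were each tested for such a value in the exponential group only, since the other groups hold 3 arrays, and chance flags about 1 in 20 groups. The same array had Cd8a at 2.96 and Cd4 at 5.18, and their part in the Ccl5 value was not tested.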

How the results depend on the processing

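Over the alternatives to the fits of the 6 ligands, 342 of 366 values kept direction and side of the threshold, 10 no longer passed, 4 passed newly and 10 turned sign. Those that no longer passed were all Cxcl10 against wild type, the only ligand differences called in the main fits. For the other differences, keeping the side of the threshold meant staying uncalled. Cxcl10 stayed called in 14 of 19 settings in chronic and 16 of 21 in exponential leukemias against wild type, with adjusted p between 0.000299 and 0.349 and between 0.00294 and 0.21. Of the other called genes named, Gzmb lost its call in 3, Egr2 in 5, Cd4, Cd40lg and Ikzf2 in 6, Klrd1 in 8 and Ccr2 in 9 of 19 settings, and Lyz2 in 2, Car1 in 5 and Cxcr6 in 10 of 21. Both Cxcl10 calls were lost with any 1 wild-type array left out, over all rows of the table (adjusted p = 0.13 and 0.0542) and in the methods' t-test after adjustment (0.349 and 0.21).

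In chronic against wild type, the 91 genes called became 154 with a variance trend and robust estimation, 0 by the methods' t-test after adjustment, 623 before it and 0 over all rows, and 8 to 108 with 1 array left out (8, 14 and 18 without wild-type replicate 1, 2 or 3, 40 and 45 without chronic replicate 1 or 2). The ligands called became 0 by the adjusted methods' t-test and 0 over all rows, and 0 to 2 with 1 array left out. In exponential against wild type, the 83 genes called became 4 by the adjusted and 477 by the unadjusted methods' t-test, 45 over all rows and 16 to 221 with 1 array left out (221 without exponential replicate 4, 36, 43 and 37 without replicate 2, 3 or 5, and 32, 16 and 26 without wild-type replicate 1, 2 or 3). The ligands called became 0, 3 and 0 in the same alternatives, and 0 to 1 with 1 array left out. In exponential against chronic, the 0 genes called became 123 by the unadjusted methods' t-test and 0 to 2 with 1 array left out (2 without chronic replicate 1). The cause of these shifts was not tested.

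With the replicate number as a block, 139 genes were called in exponential against wild type. Among them were 2 ligands, Cxcl10 and Ccl3 (-2.08, adjusted p = 0.0182). In chronic against wild type 110 genes and 1 ligand were called, and in exponential against chronic 0 genes. Exponential replicates 4 and 5 had no wild-type or chronic array of the same number. With the block, the differences therefore came from the other exponential arrays alone. The correlation of same-numbered arrays was -0.012 to 0.174, -0.008 to 0.18 and -0.037 to 0.161 in these comparisons, and the numbers alone do not pair the samples.

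Small differences turned sign with 1 array left out: Cxcl9 in chronic against wild type (-0.21 to 0.19, with 0.19, 0.04 and 0.06 above 0), and, in exponential against chronic, Ccl3 (-0.43 to 0.91, with -0.07 and -0.43 below 0), Ccl4 (-0.56 to 0.11, and 0.03 with array weights), Cxcl10 (-0.09 to 0.48) and Xcl1 (-0.02 to 1.04). Another background correction was not run, as no scanner files were used here. Cyclic loess shifted an array's median by at most 0.0671. With 3 arrays in 2 groups, differences well inside the intervals given could not be detected.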
